A study of Mus musculus with 26 samples.

Results

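The chemokines and chemokine receptors described here are the genes of the table whose mouse symbol begins with Ccl, Cxcl, Ccr or Cxcr and a number, together with Cx3cl1, Cx3cr1, Xcl1 and Xcr1. They comprise 48 of the 17023 mouse gene identifiers (59 of 18676 rows), of which 30 encode ligands and 18 encode receptors. For 6 of them (Cxcl1, Ccl6, Ccl12, Ccl21c, Ccl27b and Ccr1l1) the table held several rows under 1 identifier, each with the same human ortholog and a running number. Such rows may stem from close mouse paralogs, so these 6 genes are uncertain as single genes, and their rows were averaged.

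RNA was sequenced from laser-dissected regions of paraffin-embedded tongue from male CBA mice, an inbred strain, in the 4-NQO model of oral carcinogenesis, in which a DNA-damaging compound brings on lesions of the tongue. Tumor, dysplasia, hyperplasia and normal tissue were taken as epithelium and as the stroma beneath it, which included muscle, with 4 dysplasia libraries and 3 of each other histology per compartment. The mice were 28 to 32 weeks old for tumor, 16 to 32 for dysplasia, 20 to 32 for hyperplasia and 16 to 24 for normal tissue, so tumor and normal ages did not overlap and age and stage cannot be told apart there. Whether the animals behind the normal libraries received 4-NQO is not in the labels. Libraries of a group are called biological replicas with no animal named. Ages within a group all differed, except that tumor libraries 1 and 2 were both 32 weeks old in each compartment. If those 2 regions come from the same mouse, the p-values that use them are too small. Libraries of different stages that share an age may also come from 1 mouse, which is not in the labels.

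Chemokines are small secreted proteins that bind G protein-coupled receptors on leukocytes and other cells and direct their migration. CXC ligands such as Cxcl1 and Cxcl5 act through Cxcr2 on neutrophils, the interferon-inducible Cxcl9, Cxcl10 and Cxcl11 through Cxcr3 on activated T cells, and the monocyte chemoattractants Ccl2, Ccl7 and Ccl12 through Ccr2. Others are homeostatic: Cxcl12 from stromal cells binds Cxcr4, Cxcl13 and its receptor Cxcr5 organise B-cell follicles, and Cxcl14 is made by many epithelia.

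The promoters of 4 ligands are printed because the results below turn on them: Cxcl1 and Cxcl10 stand for the ligands of Cxcr2 and Cxcr3, Cxcl12 for the difference between compartments and Cxcl14 for tumor stroma. Each runs from 250 bases before to 50 bases after the gene's start in RefSeq (build GRCm38.p6), 5′ to 3′ on the gene's strand. Capitals mark matches to an NF-kappaB consensus, to the core of the interferon-stimulated response element (GAAA, any 2 bases, GAAA) or to TGANTCA (an AP-1 site), searched on both strands.
Cxcl1, chr5:90890995-90891294, plus strand: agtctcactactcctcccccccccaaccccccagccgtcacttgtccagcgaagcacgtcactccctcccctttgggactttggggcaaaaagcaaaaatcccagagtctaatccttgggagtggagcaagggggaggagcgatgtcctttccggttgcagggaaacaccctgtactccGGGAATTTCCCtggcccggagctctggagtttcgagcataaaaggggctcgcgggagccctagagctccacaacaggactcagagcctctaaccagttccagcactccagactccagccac
Cxcl10, chr5:92348840-92349139, minus strand: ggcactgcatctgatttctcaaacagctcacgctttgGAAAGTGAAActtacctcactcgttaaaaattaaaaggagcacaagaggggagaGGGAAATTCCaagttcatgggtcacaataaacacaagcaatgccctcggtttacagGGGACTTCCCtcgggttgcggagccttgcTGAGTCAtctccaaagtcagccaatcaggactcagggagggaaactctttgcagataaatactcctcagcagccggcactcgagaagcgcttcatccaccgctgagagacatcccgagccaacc
Cxcl12, chr6:117168285-117168584, plus strand: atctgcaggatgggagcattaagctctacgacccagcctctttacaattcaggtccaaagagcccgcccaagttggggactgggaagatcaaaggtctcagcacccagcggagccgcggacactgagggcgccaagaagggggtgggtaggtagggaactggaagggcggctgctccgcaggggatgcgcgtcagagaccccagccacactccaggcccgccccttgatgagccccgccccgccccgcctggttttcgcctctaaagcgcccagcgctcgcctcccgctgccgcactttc
Cxcl14, chr13:56296502-56296801, minus strand: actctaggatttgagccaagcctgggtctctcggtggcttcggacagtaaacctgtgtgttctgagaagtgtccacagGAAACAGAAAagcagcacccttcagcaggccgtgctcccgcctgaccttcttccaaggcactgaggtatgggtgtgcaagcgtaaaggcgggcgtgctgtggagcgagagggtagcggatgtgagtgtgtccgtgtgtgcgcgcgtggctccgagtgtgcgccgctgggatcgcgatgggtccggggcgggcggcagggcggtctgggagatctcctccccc
The Cxcl1 window held NF-kappaB matches 71 and 70 bases before the start, on opposite strands and overlapping. In the Cxcl10 window there were NF-kappaB matches 159 and 103 bases before the start, the interferon core at 213 and the AP-1 site at 74. Cxcl14 held the interferon core 172 bases before the start, and the Cxcl12 window held none of these letters. The table of promoters covered 32 of the 48 genes. An NF-kappaB match was found in 5 of the 32 (Ccl20, Ccr3, Ccr6, Cxcl1 and Cxcl10), against 4.51% of all 32851 promoters, the interferon core in 2 (against 3.44%) and the AP-1 site in 7 (against 7.81%). A match describes letters in a window and does not show that a factor binds there.

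Several libraries stood apart. The values were log2(TPM + 1), where TPM is a length-scaled relative abundance, and 3 genes (Lars2, March6 and D17H6S53E) held between 0.178% and 86.0% of a library's TPM. Their share was 86.0% in hyperplasia stroma library 1, 53.4% in dysplasia stroma library 2, 47.4% in normal stroma library 1 and 17.2% in dysplasia epithelium library 2. Between 0 and 37 of the 48 genes were listed at 0 in a library, and the 156 olfactory receptor genes, best known from the nose, averaged 0.40 to 2.36 on the same log2 scale. Between 0 and 14 of the 48 genes per library lay above the 95th percentile of those olfactory receptors, so many of the low levels below lie within a range that genes of another tissue also reach. Each stage held 1 or 2 libraries per sequencing run in a compartment, too few for values within a run, and the run was a term of every stage fit. Fits without the 2 stroma libraries in which these genes hold most of the TPM are given for some results. The other stroma values keep both libraries.

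Within a compartment, the chemoattractant genes differed widely in level. In epithelium, Cxcl14 had a mean level on the log2(TPM + 1) scale over 13 libraries of 4.65 (range 2.54 to 6.03). Next among the genes reported came the neutrophil receptor Cxcr2 at 3.49, Ccl25, a ligand of Ccr9 known from thymus and gut, at 3.39, and Ccl11 (eotaxin, a ligand of the eosinophil receptor Ccr3) at 3.18. Ccl11 varied most among these, from 0 to 6.85. In stroma, the order of the genes reported began with Ccl11 at 5.12 (3.63 to 8.33), Cxcl12 at 4.99 (3.77 to 6.46), Cxcl14 at 4.09 (2.16 to 6.60) and Cxcr2 at 3.61 (0.48 to 5.41). Neighbours in both orders overlapped in range. Cxcl14 exceeded the 95th percentile of the olfactory receptors in 9 of 13 libraries in epithelium and in 9 of 13 in stroma, but Cxcr2 did so in only 5 and 3 of 13.

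**Figure D1:**
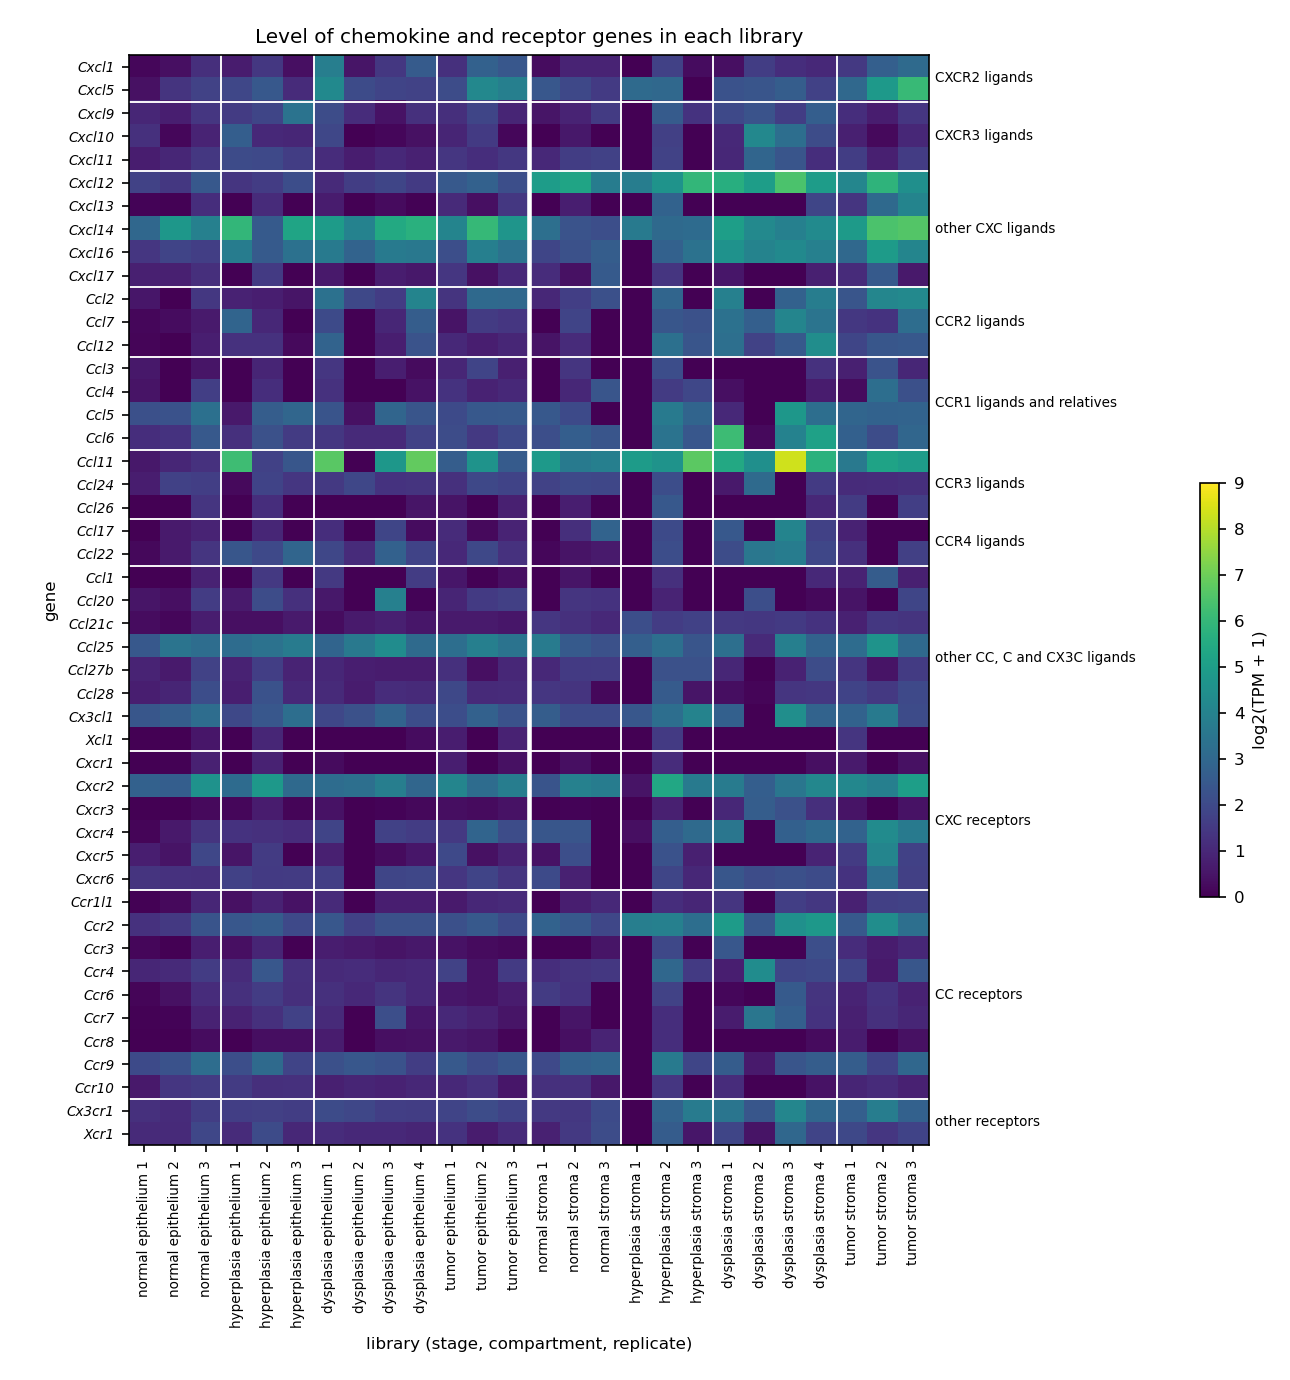
Heat map of the level, as log2(TPM + 1), of the chemokine and chemokine receptor genes reported here (down the page) in each of the 26 libraries (across), with epithelium left of stroma and the stages in order; colour runs from dark at 0 to yellow at the highest levels, and white lines part stages and role groups. Cxcl12 is green across stroma and dark across epithelium, and hyperplasia stroma library 1 is at 0 for 37 genes.

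The first question was whether these genes differed between the stages of disease within the epithelium. Of the 48, 40 passed the filter (at least 3 libraries with a TPM of 1 or more): 26 ligands and 14 receptors. Ccl3, Ccl26, Ccl21c, Xcl1, Cxcr1, Cxcr3, Ccr3 and Ccr8 did not. None of the 40 reached a Benjamini-Hochberg adjusted p under 0.05 in limma in any comparison. The share of all 14541 tested genes called was 0.0413% in hyperplasia against normal, 0.502% in dysplasia against normal and 0.0206% in tumor against normal, 0% in dysplasia against hyperplasia and in tumor against dysplasia, and 0.165% in the test of any stage difference. At an unadjusted p under 0.05 limma gave 4, 7 and 5 of the 40 for hyperplasia, dysplasia and tumor against normal, where 3.79%, 8.84% and 4.48% of all genes passed. It gave 4 of 40 in dysplasia against hyperplasia (1.99% of all genes), 1 in tumor against dysplasia (2.3%) and 6 for any stage (5.03%).

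Although no single gene was called, the libraries of diseased epithelium often lay wholly above those of normal epithelium. The number of the 40 genes with every library above every normal library was 8 in hyperplasia (20% against 3.84% of all genes), 4 in dysplasia (10% against 3.09%) and 8 in tumor (20% against 3.67%). In dysplasia 1 gene, Cxcl17, lay wholly below (2.5% against 3.49% of all genes). In hyperplasia and in tumor 0 genes did so, against 1.55% and 5.11% of all genes. The comparisons share the 3 normal libraries, so they are not independent of each other. The median log2 difference over the 40 genes was 0.11, 0.12 and 0.21 for hyperplasia, dysplasia and tumor, beside 0.08, 0.01 and 0.01 over all tested genes. Since the assay reads bulk tissue, fewer cells of a type and less RNA per cell cannot be told apart in any of these values.

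Cxcl16, the transmembrane ligand of Cxcr6 that binds T cells and also acts as a scavenger receptor, was the gene with the smallest p in all 3 comparisons with normal epithelium. Its level on the log2(TPM + 1) scale was 1.42, 1.83 and 1.69 in normal epithelium, 3.77, 2.56 and 3.34 in hyperplasia, 3.69, 2.86, 3.67 and 3.59 in dysplasia and 2.16, 3.88 and 3.40 in tumor. Every diseased library exceeded every normal one. The log2 difference from normal was 1.67 ± 0.47 (SE) in hyperplasia (limma adjusted p = 0.413), 1.85 ± 0.43 in dysplasia (adjusted p = 0.0607) and 1.59 ± 0.47 in tumor (adjusted p = 0.361). The call in dysplasia depended on scaling: the adjusted p was 0.0181 with quantile normalization, 0.0287 with median centring and 0.0233 after rescaling without the 3 dominant genes. Its receptor Cxcr6 had levels of 1.74, 1.54 and 1.58 in hyperplasia epithelium and 1.43, 1.85 and 1.38 in tumor epithelium, against 1.37, 1.27 and 1.23 in normal epithelium. Those groups did not overlap, but the differences of 0.29 ± 0.46 and 0.23 ± 0.46 (adjusted p = 1.00 in each) were smaller than their standard errors.

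Among the ligands of Cxcr2, Cxcl5 had levels of 2.08, 4.20 and 3.90 in tumor epithelium, against 0.39, 1.37 and 1.76 in normal epithelium. Cxcl1, the mean of 3 rows whose human ortholog is CXCL2, had 1.26, 2.81 and 2.44 in tumor epithelium, against 0.18, 0.37 and 1.21 in normal epithelium. Neither gene overlapped between tumor and normal, with log2 differences of 2.12 ± 0.65 for Cxcl5 (adjusted p = 0.411) and 1.44 ± 0.64 for Cxcl1 (adjusted p = 0.993). In dysplasia, library 1 stood far above the rest for both, with a Cxcl5 level of 4.28 beside 2.04, 1.84 and 1.76 and a Cxcl1 level of 3.86 beside 0.50, 1.44 and 2.57. The receptor itself did not separate the stages: Cxcr2 ranged from 3.17 to 4.11 in tumor epithelium and from 2.69 to 4.60 in normal epithelium. Of the 8 neutrophil markers listed, 7 were in the table. Their summed TPM was 17.9 to 43.6 in tumor epithelium and 2.28 to 17.2 in normal epithelium, with none at 0 in every library, and their part in the Cxcr2 ligand values was not tested.

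The Ccr2 ligands and Ccl11 lie side by side on chromosome 11, with Ccl2 (chr11:82035571-82037453), Ccl7 (chr11:82045712-82047525), Ccl11 (chr11:82057823-82062955) and Ccl12 (chr11:82101845-82103400) all on the plus strand within 67.8 kb. Ccl2 had levels of 3.37, 1.95, 1.59 and 4.05 in dysplasia epithelium and 1.37, 3.07 and 3.04 in tumor epithelium, against 0.56, 0 and 1.45 in normal epithelium. Every dysplasia library exceeded every normal one, and tumor overlapped normal by its lowest library. The log2 differences were 2.10 ± 0.55 in dysplasia (adjusted p = 0.105) and 1.88 ± 0.60 in tumor (adjusted p = 0.500). Dysplasia was also 1.99 ± 0.55 above hyperplasia, where Ccl2 stood at 0.87, 0.76 and 0.53, again with no overlap (1 of 40 genes higher, 2.5% against 0.571% of all genes). Ccl11 had levels of 6.68, 0, 4.75 and 6.85 in dysplasia epithelium, against 0.58, 0.96 and 1.27 in normal epithelium. In dysplasia 3 libraries lay far above normal and library 2 was listed at 0, for a log2 difference of 3.72 ± 1.19 (adjusted p = 0.221).

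Dysplasia epithelium library 2, in which the 3 dominant genes took 17.2% of TPM, decided these calls. It was also the youngest of its group, at 16 weeks beside 24, 28 and 32 weeks, where normal epithelium was 16 to 24 weeks old. With library 2 left out, the ages of dysplasia and normal met only at 24 weeks, and the part of age was not tested. Without library 2, 5 of the 40 genes rose in dysplasia against normal epithelium, beside 397 of 14371 genes tested (2.76%). Ccl11 rose by a log2 difference of 5.72 ± 0.65 (limma adjusted p = 2.14e-05), Cxcl16 by 2.15 ± 0.43 (adjusted p = 0.00476) and Ccl2 by 2.46 ± 0.54 (adjusted p = 0.0111). Cxcl1 rose by 2.01 ± 0.53 (adjusted p = 0.0371) and Ccl7 by 1.83 ± 0.50 (adjusted p = 0.0454). Of these 5, 3 (Ccl2, Ccl7 and Ccl11) are neighbours in the chromosome 11 cluster. The macrophage markers were higher in dysplasia as well: 8 of the 9 listed were in the table, and their summed TPM was 80.9 to 232 in dysplasia epithelium and 28.0 to 49.6 in normal epithelium, with none at 0 in every library. In hyperplasia epithelium these markers summed to 69.0 to 249 TPM. Cxcl16 and Ccl11 lay wholly above normal there, and Ccl2, Cxcl1 and Ccl7 did not. All 8 markers had positive differences in dysplasia, C1qc (a complement component of macrophages) of 2.37 (adjusted p = 0.0105) and Cd68 (a lysosomal protein) of 2.07 (adjusted p = 0.0232) with every library kept. Their part in the chemokine values was not tested.

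**Figure D2:**
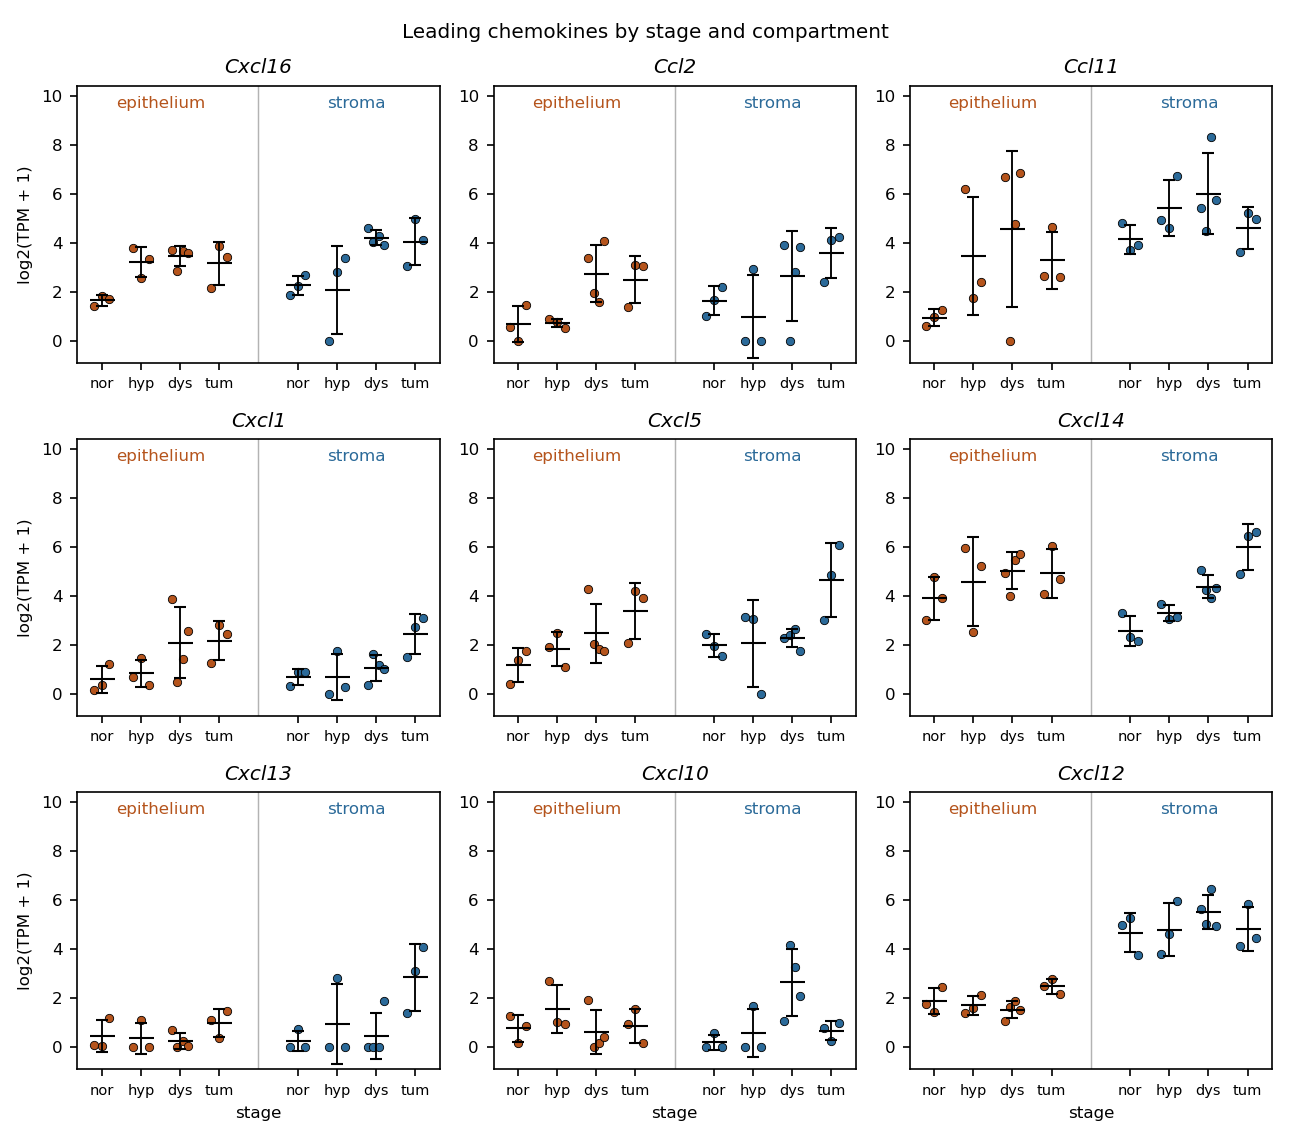
Level as log2(TPM + 1) of the leading ligands in each library, with epithelium left of stroma and the stages in order (nor, hyp, dys and tum stand for normal, hyperplasia, dysplasia and tumor); points are libraries and bars the mean ± SD. Within epithelium, Cxcl16 is lowest in the 3 normal libraries, and Ccl11 in dysplasia epithelium holds 3 high libraries and 1 at 0.

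The ligands of Cxcr3 showed another order. In epithelium all 3 had positive differences from normal in hyperplasia (median 0.89), and 1 of 3 was positive in dysplasia (median -0.10). Cxcl9 had levels of 1.55, 1.88 and 3.43 in hyperplasia, against 0.97, 0.74 and 1.43 in normal epithelium, a log2 difference of 1.17 ± 0.51 (adjusted p = 1.00). Cxcl11 had 2.06, 1.98 and 1.62 in hyperplasia, against 0.73, 0.96 and 1.45 in normal epithelium, a difference of 0.76 ± 0.36 (adjusted p = 1.00). Both were separated from normal in every library, as was Ccl22, a ligand of Ccr4 made by dendritic cells and macrophages, with 2.40, 1.98 and 2.94 in hyperplasia against 0.21, 0.66 and 1.40 in normal epithelium (difference 1.57 ± 0.46, adjusted p = 0.500). Marker sums of antigen-presenting cells did not overlap between these groups either, at 16.2 to 19.2 TPM in hyperplasia and 4.00 to 11.5 TPM in normal epithelium for dendritic cells and 69.0 to 249 and 28.0 to 49.6 TPM for macrophages. The list for Langerhans cells, the dendritic cells of epithelium (Cd207, Epcam and Cd74), gave 91.1 to 295 and 41.2 to 76.6 TPM. Its sum also reached 67.5 to 246 TPM in normal stroma, so it does not measure these cells alone. The part of antigen-presenting cells in the hyperplasia values was not tested. Dysplasia lay below hyperplasia for Cxcl11 (-0.92 ± 0.33) and Ccr10 in every library (5% of the 40 genes against 1.15% of all genes). In tumor against dysplasia, Cxcl11 and Cxcl12 lay wholly higher (5% against 2.77%), Cxcl12 by 0.93 ± 0.37, and Ccr6, the receptor of Ccl20, wholly lower (2.5% against 0.983%), by -0.67 ± 0.33 (adjusted p = 1.00 for each). In the same comparison the fibroblast markers summed to 129 to 590 TPM in tumor and 70.8 to 159 TPM in dysplasia epithelium, and the muscle markers to 45.9 to 295 TPM in tumor and 4.04 to 19.8 TPM in dysplasia epithelium. limma called none of them, with 5 of 6 and 4 of 5 at an unadjusted p under 0.05, and their part in the Cxcl12 value was not tested. Others named by their rank in these comparisons were Cxcl1 (1.33), Cxcl9 (-1.01) and Cxcl10 (-0.98) as log2 differences of dysplasia minus hyperplasia, and Cxcr4 (0.82), Cxcl5 (0.86) and Cxcl13 (0.60) as differences of tumor minus dysplasia. In the test of any stage difference the smallest adjusted p was 0.183 for Ccl2, followed by 0.232 for Cxcl16.

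Other members of epithelium gave little sign of stage. Cx3cr1, the fractalkine receptor of monocytes and macrophages, lay wholly above normal at all 3 stages, at 1.63 to 1.71 in hyperplasia, 1.64 to 2.06 in dysplasia and 1.80 to 2.08 in tumor, against 1.12 to 1.62 in normal epithelium. The gap to normal was at most 0.55 ± 0.36 in tumor (adjusted p = 1.00). Cxcr4 reached 1.49, 2.89 and 2.10 in tumor epithelium, against 0.12, 0.61 and 1.35 in normal epithelium (difference 1.37 ± 0.50, adjusted p = 0.732). Cxcl14 ranged widely at every stage, from 4.07 to 6.03 in tumor, from 4.00 to 5.72 in dysplasia and from 2.54 to 5.97 in hyperplasia, against 3.01 to 4.78 in normal epithelium. Ccl20, which draws Ccr6-bearing cells to mucosal surfaces, was at 3.91 in dysplasia epithelium library 3 and at most 0.59 in the other 3 dysplasia libraries.

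In stroma 45 genes passed the filter (29 ligands and 16 receptors), all except Xcl1, Cxcr1 and Ccr8. None of the 45 was called by limma at any stage. The share of all 15345 genes called was 0.00652% in hyperplasia against normal, 0.0326% in dysplasia against normal, 0.0521% in tumor against normal, 0% in dysplasia against hyperplasia, 0.143% in tumor against dysplasia and 0.169% for any stage. At an unadjusted p under 0.05 limma gave 0, 9 and 6 of the 45 for hyperplasia, dysplasia and tumor against normal (6.86%, 3.32% and 1.91% of all genes). It gave 8 in dysplasia against hyperplasia (7.42%), 11 in tumor against dysplasia (2.83%) and 14 for any stage (4.69%). The spread that these tests use was pooled strongly over genes in stroma, with 51.2 prior degrees of freedom beside 8 residual ones, so a p-value rests little on a gene's own libraries.

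Separation between stroma groups was again in the higher direction. Every library lay above every normal library for 2 genes in hyperplasia (4.44% against 1.09% of all genes), for 12 in dysplasia (26.7% against 2.18%) and for 14 in tumor (31.1% against 5.12%). Of the 2 in hyperplasia, Ccl21c rests on the mean of 5 rows. The row that was highest in most libraries overlapped, at 2.56 to 8.68 in hyperplasia against 5.24 to 7.15 in normal stroma. Only Ccl24 in tumor lay wholly below (2.22% against 2.43% of all genes), with 0 genes below in hyperplasia and in dysplasia (5.53% and 2.34% of all genes). Of the 48 genes, 16, 1 and 16 were listed at 0 in normal stroma libraries 1 to 3. In dysplasia stroma 9, 20, 14 and 1 were at 0, and in tumor stroma 0, 8 and 2. The part of these values at 0 in the separation was not tested. The median log2 difference over the 45 genes was 0.03, 0.42 and 0.50 for hyperplasia, dysplasia and tumor, beside -0.71, -0.06 and -0.04 over all genes tested. Without the 2 stroma libraries that stand apart it was 0.47, 0.80 and 0.75 over 44 genes. The medians over all genes were then 0.25, 0.21 and 0.16, so the sign of each depended on those libraries. In these libraries the skeletal muscle markers, all 5 found, summed to 581 to 1771 TPM in tumor stroma and 51.6 to 738 TPM in dysplasia stroma, against 971 to 5602 TPM in normal stroma. The part of muscle in the chemokine values was not tested.

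**Figure D3:**
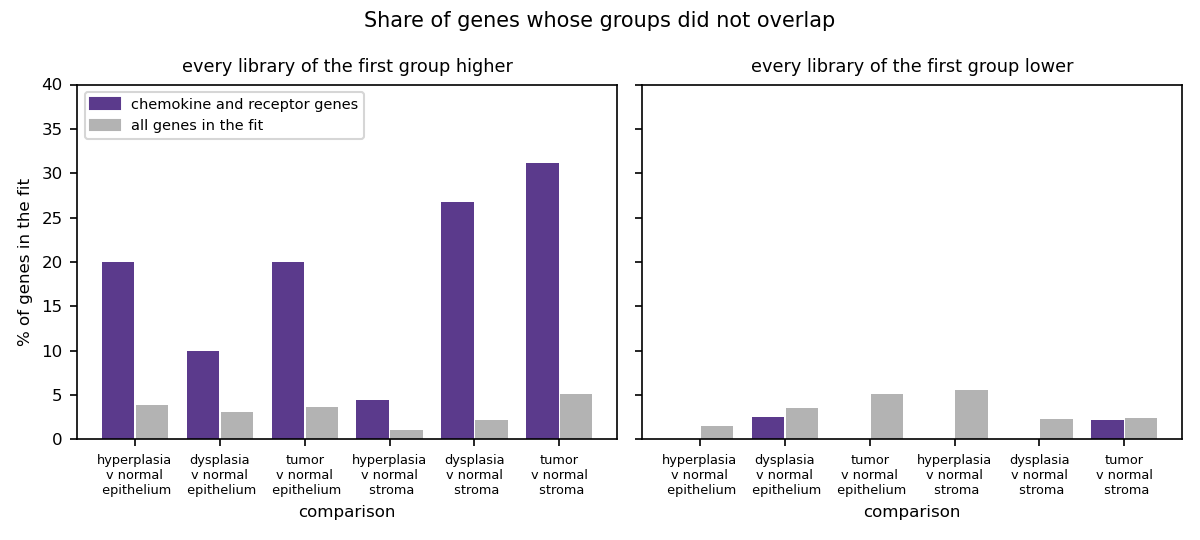
Percent of genes whose libraries all lay above (or all below) every library of the compared group, for each stage comparison in epithelium and in stroma; purple bars give the chemokine and chemokine receptor genes and grey bars all genes tested. The chemokine genes reach 26.7% in dysplasia and 31.1% in tumor stroma against normal stroma, beside 2.18% and 5.12% of all genes.

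In dysplasia stroma the Cxcr3 ligands Cxcl9 and Cxcl10, Cxcr3 itself, the Ccr4 ligand Ccl22 and the receptor Ccr7 lay wholly above normal. Cxcl10 had levels of 1.05, 4.19, 3.27 and 2.09 in dysplasia, against 0, 0.56 and 0 in normal stroma (difference 2.38 ± 0.66, limma adjusted p = 0.310). Cxcl9 had 2.00, 2.30, 1.65 and 2.68 in dysplasia, against 0.50, 0.90 and 1.58 in normal stroma. Cxcr3 itself, the receptor of both on activated T cells, had 0.99, 2.64, 2.24 and 1.21 in dysplasia, against 0, 0.09 and 0 in normal stroma (difference 1.71 ± 0.54, adjusted p = 0.567). All 3 genes separated dysplasia from normal, and all 3 also lay wholly lower in tumor than in dysplasia, together with Ccl22 (4 of 45 genes, 8.89% against 0.815% of all genes). In tumor stroma Cxcl10 stood at 0.79, 0.23 and 0.99, Cxcl9 at 1.18, 0.73 and 1.41 and Cxcr3 at 0.47, 0 and 0.43. The tumor minus dysplasia differences were -2.06 ± 0.66 for Cxcl10 (adjusted p = 0.573) and -1.50 ± 0.54 for Cxcr3 (adjusted p = 0.858). Dysplasia stroma library 2, one of those that stand apart, held the highest Cxcl10 and Cxcr3 levels. Without it and hyperplasia stroma library 1, the dysplasia minus normal difference of Cxcl10 was 1.63 ± 0.61 (adjusted p = 0.586).

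Ccl22 had levels of 2.10, 3.56, 3.80 and 1.92 in dysplasia, against 0.15, 0.47 and 0.65 in normal stroma (difference 2.32 ± 0.69, adjusted p = 0.495). Its partner at Ccr4, Ccl17, did not follow it, with 2.48, 0, 4.06 and 1.75 in dysplasia against 0, 1.22 and 2.85 in normal stroma. Ccr7, which guides dendritic cells and naive T cells to lymph nodes, had 0.69, 3.55, 2.72 and 1.33 in dysplasia, against 0, 0.53 and 0 in normal stroma (difference 1.87 ± 0.63, adjusted p = 0.714). Both Ccl22 and Ccr7 were above normal in every dysplasia library. Library 2, one of those that stand apart, held the highest Ccr7 level, and both differences keep it. The 6 dendritic cell markers, a list that holds Ccr7 itself, summed to 24.1 to 51.7 TPM in dysplasia and 8.17 to 11.4 TPM in normal stroma. The 9 T cell markers summed to 3.17 to 64.1 TPM in dysplasia and 18.0 to 33.7 TPM in normal stroma. The dendritic cell sums did not overlap between the groups and the T cell sums did. No marker of either list was at 0 in every library of these groups, and their part in the chemokine values was not tested.

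The monocyte chemoattractants were high in dysplasia stroma as well. Ccl7 had levels of 3.37, 2.72, 4.10 and 3.47 in dysplasia, against 0, 1.83 and 0 in normal stroma (difference 2.57 ± 0.78, adjusted p = 0.499). Ccl12 had 3.29, 1.78, 2.51 and 4.42 in dysplasia, against 0.47, 1.10 and 0 in normal stroma. Both were separated from normal. Ccl2 was not, because dysplasia library 2 was listed at 0 beside 3.92, 2.80 and 3.83 in the other dysplasia libraries, where normal stroma had 1.02, 1.68 and 2.18. Over the 3 Ccr2 ligands the median difference was 2.29 in dysplasia and 1.37 in tumor. Their receptor Ccr2 had 4.94, 2.43, 4.51 and 4.80 in dysplasia and 3.83, 3.92 and 3.25 in hyperplasia, against 2.84, 2.50 and 1.93 in normal stroma, wholly above normal in hyperplasia only (1.26 ± 0.95). Cx3cr1 (3.50, 2.42, 4.11 and 3.02 in dysplasia against 1.50, 1.46 and 2.03 in normal stroma) was also separated. Macrophage markers summed to 43.7 to 393 TPM in dysplasia and 32.2 to 83.6 TPM in normal stroma, and their part was not tested.

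In tumor against normal stroma, Cxcl14, a ligand of epithelia and fibroblasts, had the smallest p of the 45 genes. Its level was 3.28, 2.31 and 2.16 in normal stroma, 3.68, 3.07 and 3.14 in hyperplasia, 5.05, 4.25, 3.90 and 4.31 in dysplasia and 4.90, 6.44 and 6.60 in tumor. Tumor and dysplasia both lay wholly above normal, tumor by 3.58 ± 0.93 (limma adjusted p = 0.175). Without the 2 stroma libraries that stand apart Cxcl14 rose in tumor stroma, by 3.62 ± 0.67 (adjusted p = 0.0399), where 6 of 15295 genes (0.0392%) were called. The keratinocyte markers, 6 of 7 found, summed to 710 to 4986 TPM in tumor stroma and 2553 to 4086 TPM in normal stroma, and the 6 fibroblast markers to 692 to 2383 TPM in tumor stroma and 812 to 3541 TPM in normal stroma. Both lists overlapped between the groups, and their part in the Cxcl14 value was not tested.

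The Cxcr2 ligands were next. Cxcl5 had levels of 3.03, 4.86 and 6.06 in tumor stroma, against 2.43, 1.96 and 1.53 in normal stroma (difference 2.84 ± 0.96, adjusted p = 1.00). Cxcl1 had 1.51, 2.73 and 3.10 in tumor stroma, against 0.31, 0.88 and 0.89 in normal stroma (difference 1.68 ± 0.71, adjusted p = 1.00). The groups did not overlap for either gene, as in epithelium, and tumor library 1 was the lowest of the tumor libraries for both genes in both compartments. In dysplasia stroma Cxcl5 reached at most 2.64, below every tumor library. The neutrophil markers summed to 28.7 to 94.1 TPM in tumor stroma and 5.85 to 11.7 TPM in normal stroma, and the part of neutrophils in these values was not tested. Cxcr2 overlapped, at 4.16, 3.87 and 5.03 in tumor stroma against 2.34, 3.97 and 3.78 in normal stroma.

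Cxcl13 and Cxcr5, the ligand and receptor of B-cell follicles, reached their highest levels in tumor stroma. These levels are low: Cxcl13 exceeded the 95th percentile of the olfactory receptors in 0 of 13 stroma libraries and Cxcr5 in 1. Cxcl13 had levels of 1.38, 3.09 and 4.07 in tumor stroma, against 0, 0.74 and 0 in normal stroma (difference 2.36 ± 0.73, adjusted p = 0.825), and was listed at 0 in 3 of the 4 dysplasia stroma libraries. Cxcr5 had 1.58, 4.09 and 1.75 in tumor stroma, against 0, 0, 0 and 0.90 in dysplasia stroma (difference 2.18 ± 0.66, adjusted p = 0.491), and it lay wholly above dysplasia along with Cxcl5 and Ccl28 (3 of 45 genes, 6.67% against 2.86% of all genes). Cxcr5 and normal stroma overlapped, since normal library 2 stood at 2.15. The 6 B and plasma cell markers summed to 3.00 to 18.0 TPM in tumor stroma, 20.7 to 46.6 TPM in dysplasia stroma and 4.30 to 12.2 TPM in normal stroma. The part of B and plasma cells in the Cxcl13 and Cxcr5 values was not tested. Hyperplasia stroma library 2 also listed Cxcl13 at 2.84, but its olfactory receptor genes averaged 2.36 with a 95th percentile of 5.44.

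Among the remaining genes of tumor stroma, Cxcr4 (2.81, 4.34 and 3.66 in tumor against 2.41, 2.37 and 0 in normal stroma), Ccl2 (2.38, 4.12 and 4.22 in tumor against 1.02, 1.68 and 2.18 in normal stroma) and Ccl1 (0.88, 2.63 and 0.78 in tumor against 0, 0.51 and 0 in normal stroma) were separated upward. Cxcl16 was separated as well, at 3.04, 4.96 and 4.09 in tumor and 4.60, 4.03, 4.28 and 3.92 in dysplasia, against 1.87, 2.24 and 2.66 in normal stroma. Its log2 difference from normal was 1.67 ± 0.96 in tumor and 1.90 ± 0.88 in dysplasia (adjusted p = 1.00 in each). Ccl12 (1.89 to 2.49 in tumor against 0 to 1.10 in normal stroma), Cx3cr1 (2.73 to 3.83 against 1.46 to 2.03), Ccr7 (0.79 to 1.26 against 0 to 0.53), Ccr3 (0.69 to 1.14 against 0 to 0.50) and Ccl28 (1.48 to 1.99 against 0.19 to 1.44) also lay wholly above normal. Ccl5, a T-cell and monocyte attractant, was separated by a narrow margin (2.93, 2.84 and 2.86 in tumor against 2.48, 2.02 and 0 in normal stroma). Ccl24, a further eotaxin, was the single gene separated downward (1.11, 1.14 and 1.21 in tumor against 1.76, 1.99 and 1.92 in normal stroma), with a log2 difference of -0.71 ± 0.75 (adjusted p = 1.00). Hyperplasia stroma held the library with the most genes at 0 (37 of the 48), and the differences with the smallest p against normal stroma there were -1.16 for Ccl24, -1.0 for Cxcl11, 1.26 for Ccr2, -0.96 for Ccl17 and -1.11 for Ccr9 on the log2 scale. Dysplasia exceeded hyperplasia in every library for Ccl7, Cxcl14, Cxcl16, Cxcr3 and Cxcr6 (5 of 45, 11.1% against 1.9% of all genes) and lay below it for Ccl21c (2.22% against 0.345% of all genes), at 1.32 to 1.54 in dysplasia against 1.59 to 2.15 in hyperplasia (difference -0.41 ± 0.66, adjusted p = 0.841). The Ccl21c separation rests on averaging its rows, of which 1 stood at 5.61 in hyperplasia library 1 and at most at 0.69 elsewhere. The row that was highest in most libraries overlapped, at 2.56 to 8.68 in hyperplasia against 5.91 to 7.70 in dysplasia. The smallest p of dysplasia against hyperplasia stroma belonged to Cxcl10 (2.16), Ccl22 (2.23), Cxcr3 (1.54), Ccr7 (1.70) and Ccl7 (2.11), each with a limma adjusted p of 0.651. These differences keep the 2 stroma libraries that stand apart. The median difference of this comparison was 0.56 over the chemokine genes and 0.63 over all genes. Without those libraries it was 0.27 and -0.04. In the test of any stage difference in stroma the smallest adjusted p was 0.213 for Cxcl10, followed by 0.303 for Cxcl14.

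**Figure D4:**
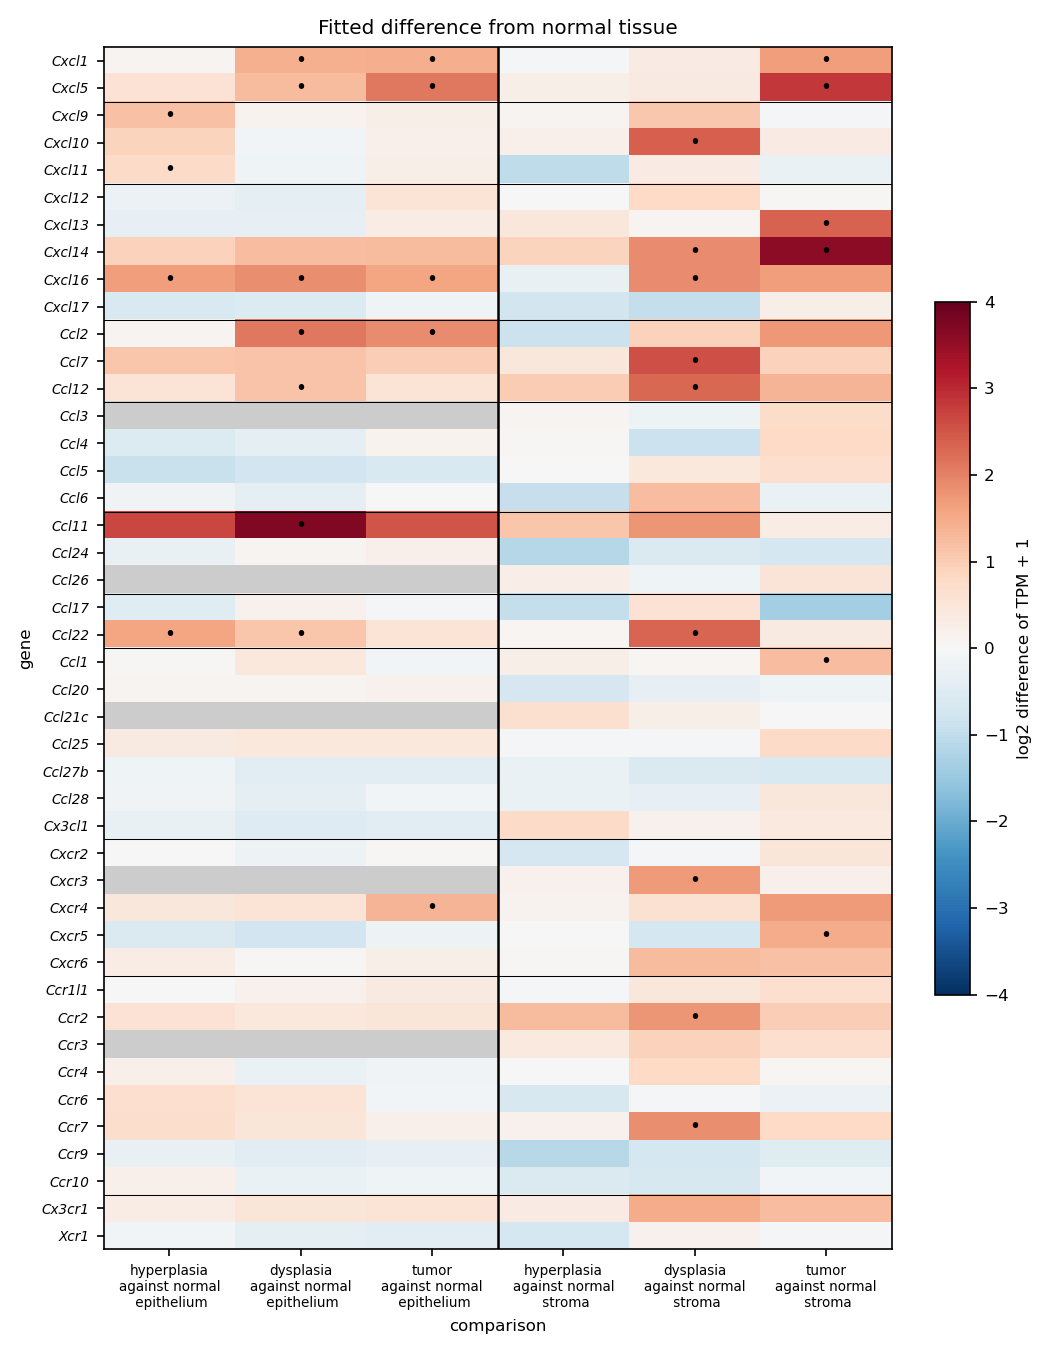
Log2 difference of the chemokine and chemokine receptor genes reported here from normal tissue at hyperplasia, dysplasia and tumor, in epithelium (left) and stroma (right); dots mark an unadjusted p under 0.05, no gene passed the adjusted threshold, and grey cells were not in the fit. Cxcl14 (3.58), Cxcl5 (2.84) and Cxcl13 (2.36) lead in tumor stroma, and Ccl7 (2.57), Cxcl10 (2.38) and Ccl22 (2.32) in dysplasia stroma.

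The change from normal to tumor was then compared between the compartments in 1 model over the 13 epithelium and stroma pairs. None of 45 genes was called (0% of 16020 genes tested), and limma gave 4 of 45 at an unadjusted p under 0.05, beside 1.36% of all genes. The tumor minus normal difference was smaller in epithelium than in stroma for Cxcl13 (-2.07 ± 0.65) and Cxcl14 (-2.37 ± 0.90), both as log2 values with an adjusted p of 1.00. Cxcr5 (-1.58), Ccl1 (-1.23) and Ccl17 (1.30) followed, again as epithelium minus stroma with an adjusted p of 1.00. None of these genes is shown to differ between the compartments in its change.

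The second question was which genes differ between epithelium and the stroma beneath it, tested over the same 13 pairs. The pairs were matched by the number in the sample code, the age and the run, which the labels do not state to be 1 region or animal. Of 45 genes, 9 were lower in epithelium and 0 higher (12 lower and 0 higher at an unadjusted p under 0.05 in limma), which is 20% of them, where 29.3% of all 16020 genes were called (18.5% higher and 10.7% lower). The median log2 difference of epithelium minus stroma was -0.25 over the 45 genes and 0.15 over all genes. In 3 of the 45 (Cxcl12, Ccl21c and Ccr2) the epithelium library lay below its stroma partner in 13 of 13 pairs (6.67% against 1.69% of all genes), and 0 lay above it in 13 of 13 (0% against 6.33% of all genes).

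Cxcl12 (chr6:117168535-117181367) was the clearest compartment marker of the family. Its level ranged from 1.08 to 2.79 in epithelium, with a mean of 1.87, and from 3.77 to 6.46 in stroma, with a mean of 4.99. The 2 compartments did not overlap in any library. The log2 difference was -3.05 ± 0.25 (limma adjusted p = 6.93e-08), and it was -3.15 ± 1.02 over the 7 pairs of sequencing run 1 and -3.09 ± 0.66 over the 6 pairs of run 2 (mean ± SD). By stage the pair difference averaged -2.78 in normal tissue, -3.10 in hyperplasia, -3.98 in dysplasia and -2.33 in tumor. Its receptor Cxcr4 was lower in epithelium as well, by -1.05 ± 0.30 (adjusted p = 0.0103), in 10 of 13 pairs.

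Ccr2 was lower in epithelium, with mean levels of 2.12 in epithelium and 3.48 in stroma and a log2 difference of -1.30 ± 0.27 (adjusted p = 0.000985). Ccl12, a Ccr2 ligand of the mouse, was lower in 11 of 13 pairs, by -1.02 ± 0.26 (adjusted p = 0.00613). Its 2 rows in the table gave -0.28 (adjusted p = 0.339) and -1.76 (adjusted p = 0.00521) when kept apart, so the size of this difference is uncertain. Ccl6, a macrophage ligand, was lower in 11 of 13 pairs, by -1.07 ± 0.36 (adjusted p = 0.0280), and Cx3cr1 in 11 of 13, by -0.88 ± 0.30 (adjusted p = 0.0344). Of the 8 macrophage markers, 5 were lower in epithelium and 1 was higher, and their part was not tested.

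Ccl11 had mean levels of 3.18 in epithelium and 5.12 in stroma and a log2 difference of -1.99 ± 0.48 (adjusted p = 0.00358), lower in 10 of 13 pairs. The gap was not the same at every stage. In normal tissue the pair differences were -4.24, -2.93 and -2.45, in hyperplasia 1.26, -2.88 and -4.34, in dysplasia 0.92, -4.48, -3.58 and 1.43 and in tumor -0.97, -0.60 and -2.40. The 3 pairs in which epithelium lay above stroma were all hyperplasia or dysplasia, and dysplasia held 2 of them. The gaps overlapped between stages.

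Ccl21c, a ligand of Ccr7 made by lymphatic vessels, was lower in epithelium by -0.92 ± 0.17 (adjusted p = 0.000357). The table held 5 rows under this identifier, of which 1 was the highest in every library except hyperplasia stroma library 1, with levels of 0.80 to 3.34 in epithelium and 2.56 to 8.68 in stroma. In that library it stood at 2.56 and another row at 5.61. Kept apart, that row gave a log2 difference of -3.98 (adjusted p = 1.30e-07). Mouse Ccl21 genes are near-identical copies, so the reads cannot be assigned to 1 of them. The lymphatic endothelium markers were lower in epithelium in 4 of 4, summing to 1.78 to 17.1 TPM in epithelium and 4.40 to 78.4 TPM in stroma. The part of lymphatic vessels in the Ccl21c value was not tested.

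Cxcl13 was called lower by -0.62 ± 0.22 (adjusted p = 0.0406), but epithelium was lower in 5 pairs and higher in 5, and the gaps of -2.74 and -2.60 on the log2 scale, far from the rest, were both in tumor pairs. No gene was called higher in epithelium. Ccl20 came nearest, higher in 10 of 13 pairs by 0.53 ± 0.33 (adjusted p = 0.236), and it was called at 0.80 ± 0.30 (adjusted p = 0.0425) without the 2 stroma libraries that stand apart. Cxcl14 stood at 0.55 ± 0.31 (adjusted p = 0.188). Cxcl16 was lower in 12 of 13 pairs by -0.27 on the log2 scale, and by -0.56 ± 0.19 (adjusted p = 0.0258) without those libraries, since hyperplasia stroma library 1 listed it at 0. As a check of the dissection, all 6 keratinocyte markers found were higher in epithelium, and all 6 fibroblast, 5 blood endothelium and 5 muscle markers were lower.

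**Figure D5:**
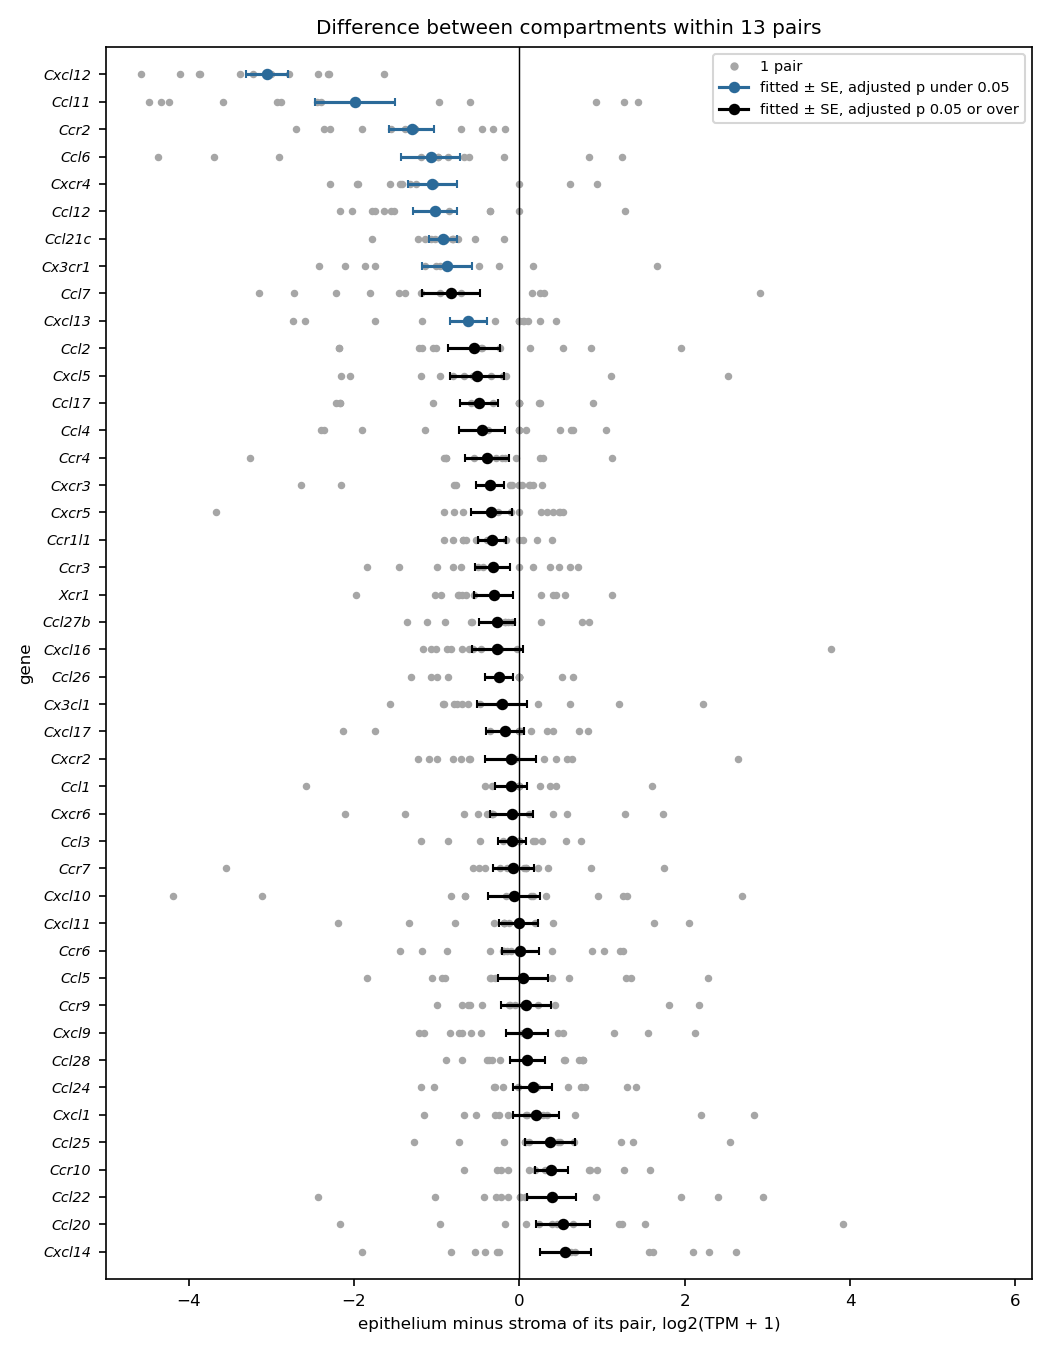
Epithelium minus stroma difference in log2(TPM + 1) along the horizontal axis for each of the 13 pairs (grey points), with the genes reported here down the page; larger points with bars are fitted differences ± SE, blue where the adjusted p was under 0.05. All 13 points of Cxcl12, Ccl21c and Ccr2 lie below 0, and those of Ccl11 run from -4.48 to 1.43.

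The calls of Ccl6, Cx3cr1 and Cxcl13 between the compartments were the least firm. When 1 pair was left out at a time, 6 to 11 genes were called. Ccl6 lost its call in 7 of those 13 fits, Cx3cr1 in 9 and Cxcl13 in 8, and the other 6 genes kept theirs in all 13. The split of all genes also depended on scaling: 2967 genes were higher and 1720 lower in epithelium as deposited, 1424 and 2262 after rescaling without the 3 dominant genes, 2835 and 2725 with quantile normalization, 3165 and 2547 with median centring, 2341 and 1068 with a pseudocount of 0.1 and 3065 and 2763 without the 2 stroma libraries that stand apart. Cxcl12, Ccl21c, Ccr2 and Ccl11 were lower in epithelium with an adjusted p under 0.05 in each of these.

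Genes that act before and after the chemokines were followed as lists. Of 16 tested genes of NF-kappaB and IL-17 signalling, which induce Cxcl1, Cxcl5, Ccl2 and Ccl20, 15 had positive differences in dysplasia against normal epithelium (median 0.91, beside 0.01 over all genes), and 1 was called: Tnfaip3, an NF-kappaB target that restrains it, rose by 1.95 (limma adjusted p = 0.0249). In tumor against normal stroma 15 of 16 were positive (median 0.78, beside -0.04), led by Il1b at 4.52 (adjusted p = 0.0566) and Il1f6 (IL-36 alpha) at 3.30 (adjusted p = 0.230). Il1f6 rose in tumor against dysplasia stroma, by 3.87 (adjusted p = 0.0126). Between compartments 7 of 17 were higher in epithelium, Il1f6 by 5.13 (adjusted p = 8.21e-08) and Il1f8 (IL-36 beta) by 3.29 (adjusted p = 6.25e-07).

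Of 10 tested genes of interferon gamma signalling, which induces Cxcl9, Cxcl10 and Cxcl11, 1 was called in hyperplasia and in dysplasia against normal epithelium: Nlrc5, an activator of MHC class I genes, rose by 3.73 (adjusted p = 0.0255) and by 3.38 (adjusted p = 0.00768). In dysplasia against normal stroma 9 of 10 had positive differences with a median of 1.36, none called by limma and 4 at an unadjusted p under 0.05. In tumor against dysplasia stroma 0 of 10 were positive (median -0.76), with none called and 0 at an unadjusted p under 0.05. The 3 Cxcr3 ligands had medians of 1.08 and -1.14 in these 2 stroma comparisons. In dysplasia against normal epithelium the medians of the list and of the ligands differed in sign: the list had a median of 0.60 with 9 of 10 positive, and the ligands a median of -0.10 with 1 of 3 positive. Without dysplasia epithelium library 2 the list's median there was 1.13, and Irf1, Nlrc5 and Socs1 were called higher.

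The receptor signalling list (G proteins, arrestins, receptor kinases and the Rac activators Dock2, Vav1 and Prex1) had positive differences for 17 of 17 genes in dysplasia against normal in epithelium (median 0.36) and in stroma (median 0.87). The medians over all genes were 0.01 and -0.06. limma called none of these, and 2 of 17 in epithelium and 1 of 17 in stroma had an unadjusted p under 0.05, where 8.84% and 3.32% of all genes did. In tumor against normal it was 16 of 17 in epithelium (median 0.29) and 11 of 17 in stroma (median 0.42), with 0 called and 0 at an unadjusted p under 0.05 in both. The list of atypical receptors and regulators held genes whose products bind chemokines without G protein signalling or trim them. It also held the ligands Pf4, Ppbp and Rarres2, the receptor Cmklr1, and Cmtm3 and Cmtm6. Of this list limma called 0 of 10 in each epithelium stage comparison and 0 of 12 in each of stroma, with 0 to 2 at an unadjusted p under 0.05. Between compartments 7 of 12 were lower in epithelium and 1 higher, with Rarres2 (chemerin, a chemoattractant) at -3.63 (adjusted p = 4.59e-08) and Pf4 (a platelet chemokine outside the symbol rule) at -1.76 (adjusted p = 8.52e-05).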

How the data were processed

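RNA-seq values of 26 laser-dissected tongue libraries were analysed. The table that the authors deposited held log2 values of TPM plus 1, from 0 to 18.67, with the scale and pseudocount read from the values. TPM keeps no record of depth, so the depth is unknown and no interval for counting error is given. With the pseudocount, log2 differences understate changes of low genes. Per the submitters' processing notes, which give no role or order, the tools included Salmon 0.9.1, STAR 2.5.1b, HTSeq 0.10.0, SAMtools 1.6, Trimmomatic 0.36, FastQC 0.11.5 and bcl2fastq 2.20, and the build was GRCm38.p6.

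Values of rows sharing a mouse gene identifier were averaged (626 identifiers in 2279 rows). limma 3.58.1 in R 4.3.3 was fitted within each compartment with stage and sequencing run as terms, and over the 13 pairs with the pair as a block, on genes that reached a TPM of 1 in 3 or more libraries. Residual degrees of freedom were 8, 8 and 9 and prior ones 12.3, 51.2 and 11.9 for epithelium, stroma and pairs. SEs are limma's, p-values of single differences are two-sided, all p-values are Benjamini-Hochberg adjusted over all genes of a fit, 0.05 was the threshold, and 14 comparisons were tested. The scripts were tested on simulated data. Genes called at any comparison, the 5 with the smallest p in each and the 5 highest in each compartment were named, and separated genes and single libraries that stood out were added after their values were seen. Members, lists and tests were chosen with earlier results of these data known.

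The pairing of compartments rests on sample codes, age and run, not on a statement in the labels. Deviations of partners correlated between -0.13 and 0.60, over 0.1 in 7 of 13 pairs. Alternatives were another pseudocount, filters, quantile normalization, median centring, rescaling without 3 dominant genes, library weights, age as a term, a replicate block, single libraries left out, 2 stroma libraries left out and, added after the data were seen, 3 left out and rows kept apart. Coordinates came from an annotation of GRCm38 by gene identifier. 47 of 48 symbols matched the table of gene names. 1 of the 48 genes and 1 marker gene are counted but not reported here by name or value. Human leukoplakia samples and immunostaining were not analysed here, and the table held 0 columns of other samples.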

Additional observations from a re-analysis of the deposited data

Results flagged for a closer look

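In 18 of 96 groups of 4 dysplasia libraries (8 in epithelium and 10 in stroma, 18.8%), 1 library lay far from the other 3 by Dixon's criterion. Chance gives this in about 1 of 20 groups of continuous values, but in 9 of the 18 the other 3 libraries were listed at 0, where any value above 0 meets the criterion, so that rate does not apply to them. All levels are log2(TPM + 1). In epithelium, library 1 was high for Cxcl5 (4.28, others 1.76 to 2.04) and Cxcr1 (0.25, others 0 to 0.03). Library 2, in which the dominant genes took 17.2% of TPM, was low for Cxcl16 (2.86, others 3.59 to 3.69), Cxcr4 (0, others 1.60 to 1.84) and Cxcr6 (0, others 1.67 to 1.93). Library 3 was high for Ccl20 (3.91, others 0 to 0.59), and library 4 for Ccl26 (0.51) and Xcl1 (0.31), both listed at 0 in the others.

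In stroma, library 2, in which the dominant genes took 53.4% of TPM, was high for Ccl20 (2.16, others 0 to 0.20) and low for Ccr1l1 (0, others 1.40 to 1.66) and Ccr9 (0.64, others 2.38 to 2.67). Library 4, with 54 of all genes at 0 where the other 3 had 1696 to 4824, was high for 7 genes listed at 0 in the others: Cxcl13 (1.88), Ccl3 (1.28), Ccl1 (1.05), Ccl26 (0.99), Cxcr5 (0.90), Cxcr1 (0.36) and Ccr8 (0.27).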

How the results depend on the processing

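Counts of chemokine genes called are given here where a setting moved them. The 9 genes called between epithelium and stroma became 4 with a pseudocount of 0.1 (21.3% of all genes called), 14 with library weights (43.3%) and 14 without the 2 stroma libraries that stand apart (36.4%), beside 29.3% with the 9. The 0 called in dysplasia against normal epithelium became 1 (Cxcl16) with quantile normalization, with median centring and after rescaling without the 3 dominant genes (1.51% of all genes when rescaled). With age as a term, 1 gene (Cxcl10, adjusted p = 0.0158) was called in dysplasia against normal stroma and 1 for any stage of stroma. Without the 2 or the 3 stroma libraries that stand apart, 1 gene was called in tumor against normal stroma (0.0392% of all genes without the 2). Library weights raised the calls of all genes too, given here as a share beside each count. They called 4 genes in hyperplasia (3.34% of all genes), 9 in dysplasia (9.22%) and 5 in tumor (3.84%) against normal epithelium, 3 in dysplasia against hyperplasia (1.66%), 5 of 40 in tumor against dysplasia (9.81%) and 12 for any stage of epithelium (13.5%). They also called 14 in dysplasia (5.16%) and 6 in tumor (2.18%) against normal stroma, 11 in tumor against dysplasia (2.35%) and 14 for any stage of stroma (4.4%). Leaving out 1 library gave 0 to 5 genes in dysplasia against normal epithelium and 0 to 3 for any stage of epithelium. Each was highest without dysplasia epithelium library 2, where 2.76% of all genes were called in dysplasia against normal. Leaving out 1 library gave 0 to 1 in dysplasia against normal stroma and 0 to 1 for any stage of stroma, highest without dysplasia stroma library 1. Leaving out 1 pair gave 6 to 11 between the compartments. For quantile normalization, median centring, age as a term and the other fits with libraries left out, no share of all genes is given here. Those counts cannot be read as particular to the chemokine genes. In hyperplasia against normal stroma the differences turned to 0.074 for Cxcl11 and 0.11 for Ccl17 under median centring, and to 0.011 for Ccl17 and 0.028 for Ccr9 under library weights. The cause was not tested.

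With the replicate number as a block, 0 chemokine genes were called in each stage comparison, as without it, and all genes called in dysplasia against normal epithelium numbered 21 (73 without the block), 3 for any stage of epithelium (24 without), 13 in tumor against normal stroma (8 without) and 7 in hyperplasia against normal stroma (1 without). With the pairs ignored (no replicate block), 7 chemokine genes and 3791 of all genes were called between the compartments, where the paired fit called 9 and 4687. Same-numbered libraries of different stages deviated together in 6 of 18 cases in epithelium and 4 of 18 in stroma (correlation over 0.1). Such correlations cannot show whether same-numbered libraries come from 1 animal, which the labels do not state. The ages differed in most such cases, and libraries of different ages cannot share an animal. Epithelium libraries numbered 1, for example, were 16, 20, 24 and 32 weeks old in normal tissue, hyperplasia, dysplasia and tumor.

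Depth is unknown, and many levels lie within the range of the olfactory receptor genes. With 3 or 4 libraries a group and spread pooled over genes, differences of low genes can be missed. Differences of named genes and medians over genes numbered 88 together, with 1736 values under other settings. Of these, 1479 were unchanged: a gene kept direction and side of the threshold, or a median stayed within a fixed log2 step. Of the rest, 35 lost the call, 37 gained it, 181 medians moved by more than that step and 4 genes changed sign.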

Other observations

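Several chemokine genes of the table shared an identifier between rows that did not move alike. The rows of Ccl27b, a skin chemokine, differed in sign between epithelium and stroma, by -1.39 (adjusted p = 0.0244) and by 0.98 (adjusted p = 0.00931) on the log2 scale, so their mean hid both differences. The rows of Ccl6 gave -1.16 (adjusted p = 0.0167) and -0.99 (adjusted p = 0.0630). Without dysplasia epithelium library 2, the rows of Cxcl1 gave 1.93 (adjusted p = 0.0390), 2.47 (adjusted p = 0.00985) and 1.64 (adjusted p = 0.202) in dysplasia against normal epithelium. The rows of a gene carry the same human ortholog with a running number, and which mouse transcript a row measures is not stated in the sources used here.

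The genes of Cxcl10, Cxcl11, Cxcl16, Ccl25, Xcl1, Cxcr5, Ccr9 and Cx3cr1 overlap exons of a neighbouring gene in the annotation, Cxcl10 with Art3 and Cxcl16 with Zmynd15 among them, and reads of such neighbours cannot be told apart where strand was not used.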
